A study of Mus musculus with 412 samples.

Results

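Cytoplasmic ribosomal protein genes were followed across single colonic sensory neurons of the mouse. The genes were chosen by a rule on their names, set with earlier results of these data known. It took protein-coding genes whose symbols begin with Rpl or Rps and a number, together with Rplp0, Rplp1, Rplp2 and Rpsa, leaving out the Rps6k kinases. This gave 82 genes of the 45513 rows of the deposited table, 32 of the small and 50 of the large ribosomal subunit. They lay on 19 chromosomes, with the most, 14 genes, on chromosome 7.

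Each cytoplasmic ribosome is built from a small subunit, which reads the messenger RNA (mRNA), and a large subunit, which joins amino acids, and most ribosomal proteins are present once in each ribosome. Rplp0, Rplp1 and Rplp2 form the stalk of the large subunit that recruits the elongation factors. The mRNAs of ribosomal proteins belong to the TOP mRNAs, which begin with a C followed by a run of pyrimidines and whose translation is switched by mTOR signalling. Sensory neurons need ribosomes in the cell body and also along their long axons.

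The neurons came from C57BL/6J mice in which the retrograde tracer Fast Blue had been injected into the colon wall, which marks sensory neurons that project to the colon. Dorsal root ganglia of the thoracolumbar (TL) and of the lumbosacral (LS) spine were dissociated and cultured apart, and single labelled neurons were picked by hand with a pipette for full-length Smart-seq2 libraries of polyadenylated RNA. The labels gave no genotype other than the strain, no treatment, and no animal or culture for a neuron, so that each spinal level counts as 1 sample, neurons were not counted as replicates, and no p-value is given. The table held 167 TL and 158 LS neurons on 6 plates. A further 74 labelled neurons and 13 bath controls were not analysed here. The authors filtered out low-quality cells, and before their clustering they also removed cells with satellite glia contamination. In the main results here no neuron of the table was left out for satellite glia transcripts.

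Reads recovered from the table ranged from 416007 to 12058968 per neuron, with a median of 2867069. The number of genes detected (value above 0) ranged from 6291 to 17193, with a median of 13658. Levels below are the deposited per-length values brought back from the log scale and rescaled to a total of 1000000 in each neuron. Of 10 sensory neuron markers, Tubb3, Uchl1, Prph, Stmn2 and Snap25 were above 0 in all 325 neurons, and 222 neurons had all 10 above 0. Tubb3, a neuronal tubulin, had a mean level of 6748. Satellite glia markers, from the cells that wrap these neurons in the ganglion, had a summed level from 50.0 to 102994 per neuron, with a median of 1220. Of the other lists of non-neuronal markers, the median sums per neuron were 757 for Schwann cells, 29.8 for macrophages, 7.15 for endothelial cells, 12.5 for fibroblasts and 7.35 for red blood cells.

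Ribosomal protein mRNA was found throughout. Of the 82 genes, 79 (32 small and 47 large) had a mean level of at least 10, and each of the 79 was above 0 in all 325 neurons, against 12.2% of the 7304 other genes with a mean of at least 10. Their sum took 2.26% ± 0.901 (SD over 325 neurons) of a neuron's total, from 0.622% in the lowest neuron through a median of 2.00% to 7.68% in the highest. Counted as reads, which gives these short genes less weight, the mean share was 1.22%. A larger share can come from more ribosomal protein mRNA or from less of other RNA, and values relative to a total cannot tell these apart.

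The members differed in level. Among the 79 genes the highest mean was 64.6 times the lowest, the median was 211, and the 5 highest genes made up 20.2% of the sum. Rplp1, a stalk protein, was the highest, with a level of 214 in the lowest neuron, 1367 at the median and 5596 in the highest (mean 1527 ± 727 SD, n=325). Among the highest were also Rpl4, one of the larger proteins of the large subunit, with a mean level of 788 ± 269, Rpl32 with 731 ± 395, and Rps26, which touches the mRNA where it leaves the small subunit, with 703 ± 361. The lowest level of any of these 4 genes in a neuron was 145, for Rps26.

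At the other end stood Rpl24, which bridges the subunits, with levels of 1.54, 21.7 and 91.6 in the lowest, the median and the highest neuron (mean 23.7 ± 11.7). Next came Rps15a with a mean level of 33.8 ± 17.5, Rpl12 at the base of the stalk with 41.7 ± 21.3, Rpl35a with 47.7 ± 25.5, and Rpl23a, which lies at the exit of the peptide tunnel, with 51.6 ± 24.0. Low levels per length did not always mean few reads. Rps15a was counted over an exonic length of 6262 bases and had a median of 248 reads per neuron, whereas Rpl24 with a length of 1030 bases had 28 reads. Across the 79 genes, level and counted length gave a Spearman rho of -0.66 (n=79 genes, which share libraries and the counting), and 0.20 where reads were not divided by length. The order of the levels therefore rests in part on the lengths that were used for counting, which ranged from 404 to 6262 bases.

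**Figure D1:**
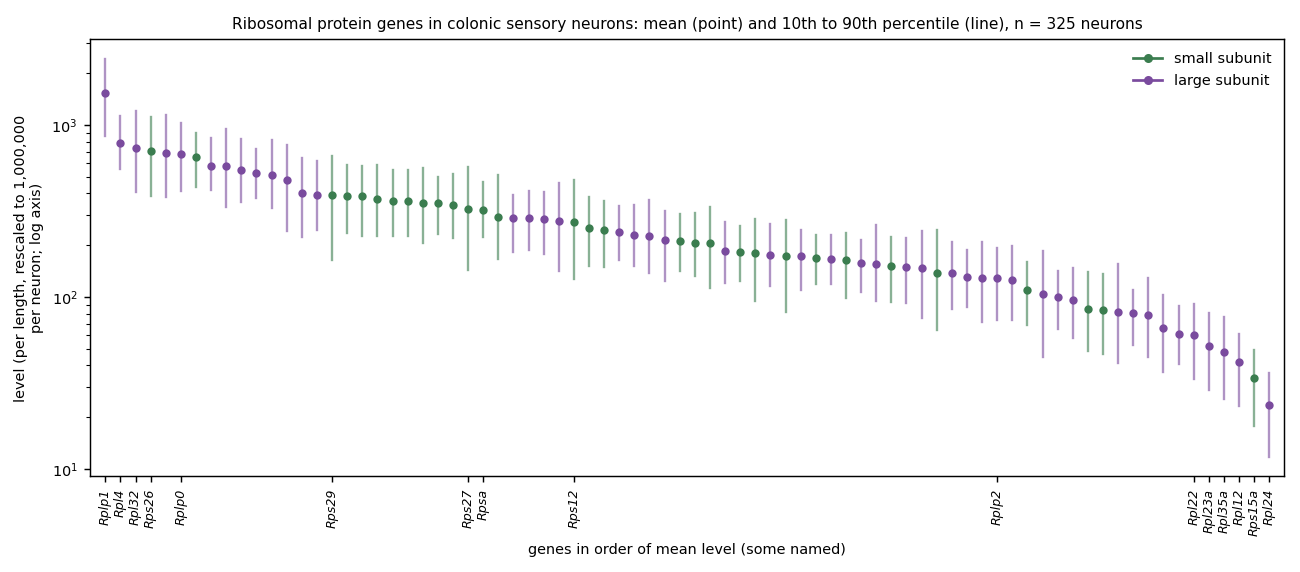
Levels of 78 of the 79 ribosomal protein genes with a mean of at least 10 (1 is not shown), ordered by mean, some of them named, on a logarithmic axis of rescaled values. Points give the mean over 325 neurons (green, small subunit; purple, large subunit) and lines run from the 10th to the 90th percentile of neurons; the means run from 23.7 for Rpl24 to 1527 for Rplp1.

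Members of the stalk did not stand at one level. Rplp0, the stalk base protein, had levels of 195, 582 and 3099 in the lowest, the median and the highest neuron (mean 674 ± 351). Rplp2 had 29.9, 114 and 569 (mean 128 ± 67.3), below Rplp0 and Rplp1. Rpsa, a small subunit protein also known as the laminin receptor, had 41.8, 295 and 1343 (mean 320 ± 122). By subunit, the median of the mean levels was 261 for the 32 small subunit genes and 173 for the 47 large subunit genes.

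Of the 5 members named as paralogs of another member, 2 were expressed throughout and 3 were nearly silent. Rps27l, a close relative of Rps27, had a mean level of 173 ± 120 against 323 for Rps27, and Rpl36al had 96.1 ± 49.6 against 82.2 for Rpl36a. Rpl10l, Rpl39l and Rpl3l are known from testis and, for Rpl3l, from striated muscle. Rpl10l was above 0 in 1 of 325 neurons (0.308%, exact 95% interval 0.00779 to 1.70), with 2 reads, while Rpl10 had a mean level of 394. Rpl39l was found in 11 neurons (3.38%, 1.70 to 5.98), 1 TL and 10 LS. Its highest level, 160.8 with 99 reads, was in 1 TL neuron of plate 6 in which Rpl39 had 104, and its next highest was 8.68. Rpl3l was found in 22 neurons (6.77%, 4.29 to 10.1), 7 TL and 15 LS, with at most 22 reads, whereas Rpl3, which lies near the peptidyl transferase centre, had a mean level of 286. Such intervals (Clopper-Pearson) cover counting error only, since Smart-seq2 reads carry no molecular identifiers. The treatment of reads that match several places was not given in the sources used here, so that values of near-identical copies are uncertain: 267 rows named as ribosomal protein pseudogenes were in the table, 234 of them above 0 in a neuron, and their sum was 2.12% of that of the 82 genes.

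The start of the genes was examined because the TOP motif lies there. RefSeq promoters (build GRCm38.p6, 250 bases before and 50 bases after the annotated start) matched 62 of the 82 genes. A run of at least 8 C or T on the gene's strand that touched the 10 bases on either side of the start was present in 26 of the 62 (41.9%) and in 13.5% of all 27025 genes with a promoter. Runs of A and G of the same length, the same letters read on the opposite strand, were present in 3 members (4.84%) and in 14.7% of all. The letters CTTT on the gene's strand lay within 10 bases of the start in 17 members (27.4%) against 8.88% of all, and AAAG, its opposite strand letters, in 3 (4.84%) against 8.52%. Shown here are 12 bases before and 15 bases from the annotated start, 5′ to 3′ on the gene's strand with the run of C and T in capitals. The first 7 genes have runs of at least 8 and the last 2, Rpl22 and Rplp0, have shorter ones. Over 59 members, run length and the correlation with the other members (below) gave a Spearman rho of 0.092.
Rps27, chr3:90213634-90213660, minus strand: tccgctttcgCTCCTTTCCggcggtga
Rpl27a, chr7:109519183-109519209, plus strand: ttcgtgagCTCCTCCCTTTTCCCTTTC
Rps26, chr10:128626492-128626518, minus strand: gggcaagccgccggaTCCTCTTTCgag
Rps24, chr14:24490666-24490692, plus strand: gcgctggggTCCTTCCTTgcgcgttga
Rps9, chr7:3704029-3704055, plus strand: gccttgTCTCTCTTTgtctcgggcctg
Rpl18, chr7:45718059-45718085, plus strand: gtctcgcaggccgCTCTTTCCCCgccc
Rplp2, chr7:141447639-141447665, plus strand: gtcagcgTCTTCCTTTCgccgccggac
Rpl22, chr4:152325714-152325740, plus strand: gCCCTgggaaaagcaatagctggccga
Rplp0, chr5:115559455-115559481, plus strand: TTCgggtttcgaggaccgcctggttct

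Further into the promoters, the letters CGGAAG on either strand, the core that ETS factors such as GABPA are known to bind, were present within the 300 bases in 43 of the 62 members (69.4%) against 17.2% of all promoters. The match nearest the start began between 60 bases before and 20 bases after it in 23 of the 43 (53.5%), and in 51.0% of all promoters with a match. AAGATGGC, on either strand, was present in 4 members (6.45%) against 2.88%, and TATAAA in the 50 bases before the start in 0 members against 2.88% of all. The matches shown, with CGGAAG or its opposite strand letters CTTCCG in capitals and 10 bases on each side, come from members named below, and in Rps27 the letters aagatggc follow the match directly. A match of letters does not show that a factor binds there.
Rps21, chr2:180257344-180257369, plus strand: taccctgaccCGGAAGcacttaccga
Rpl36a, chrX:134585653-134585678, plus strand: cgcctataaaCTTCCGttgcggctct
Rpl11, chr4:136053371-136053396, minus strand: gccacggggcCGGAAGtctccctctc
Rps27, chr3:90213713-90213738, minus strand: agtagaagacCTTCCGaagatggcga

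Ribosomal protein genes went up and down together from neuron to neuron. For each of the 79 genes, the level was compared with the sum of the other members over the 325 neurons. Spearman's rho had a median of 0.795 and ran from 0.394 to 0.905, and was above 0.5 in 77 of the 79 genes. For the 7304 other genes with a mean of at least 10, rho with the members' sum had a median of -0.158 and was above 0.5 in 1.78%. All values of a neuron share 1 library and 1 total, so these figures are a description. Within TL the median of the members was 0.807 (n=167 neurons), within LS 0.781 (n=158), and within single plates 0.738 to 0.809.

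Rpl32 followed the others most closely (rho 0.905). Least like the others were Rpl22, an RNA-binding protein of the large subunit (0.394), Rpl23a (0.436), Rplp0 (0.504), Rpl18 (0.515) and Rpl12 (0.525). Without the 82 neurons with the fewest genes detected, the median was 0.705 and the lowest values were 0.144 for Rplp0, 0.159 for Rpl23a and 0.238 for Rpl22. The 79 genes varied from neuron to neuron with a coefficient of variation (CV, SD over mean) of 0.465 at the median, from 0.318 to 0.808. The median CV of the other genes was 0.612 where the mean was at least 10 and 0.423 in the 1398 where it was at least 100. The balance of the subunits moved little: small subunit genes made up 40.9% ± 1.35 of the members' sum (SD over 325 neurons), from 37.3% to 46.0%, and from 40.2% to 42.2% in the means of the 6 plates.

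**Figure D2:**
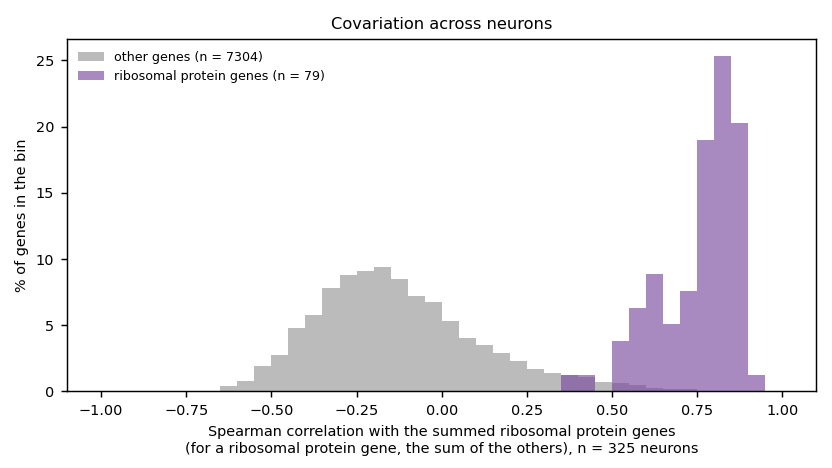
Distribution of Spearman's rho between each gene and the sum of the ribosomal protein genes (for a member, the other members) over 325 neurons. Bars give the percentage of genes per bin; the 79 members have a median of 0.795 and the 7304 other genes with a mean of at least 10 a median of -0.158.

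The other genes of translation, in lists chosen by function, followed the members to different degrees. Single genes of 9 further mRNAs known as TOP mRNAs gave rho with the members' sum from 0.276 to 0.739, with a median of 0.697 (n=325). Fau, which encodes a small subunit protein fused to a ubiquitin-like domain and falls outside the name rule, had a mean level of 657 and rho 0.848. Of the others outside the name rule, Rpl22l1 had 0.74, Rack1, a scaffold on the small subunit, 0.21 and Rpl7l1 0.06. The median rho was 0.106 for 7 translation elongation factors, 0.148 for 26 initiation factors, 0.115 for 73 mitochondrial ribosomal proteins, which serve the separate ribosomes of mitochondria, and -0.111 for 21 ribosome biogenesis factors. With each list summed first, rho was 0.882 for the TOP mRNAs, 0.612 for the initiation factors and 0.514 for the mitochondrial ribosomal proteins. It was 0.453 for the elongation factors and 0.396 for the biogenesis factors. Single biogenesis factors ran from -0.308 to 0.546, so that their median, but not every gene, differed in sign from their sum.

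Ribosomal protein mRNA took its highest shares in neurons with few genes detected. The 82 neurons with the fewest genes (6291 to 11968, here low-gene neurons) had a sum of 1.38% in the lowest, 3.19% at the median and 7.68% in the highest neuron. In the 81 neurons with the most genes (14621 to 17193, high-gene neurons) these values were 1.36%, 1.93% and 2.65%, so that the groups overlapped and the low-gene neurons spread far more. The means were 3.30% ± 1.20 (SD, n=82) and 1.92% ± 0.216 (n=81), a ratio of 1.71 or 0.78 on the log2 scale, with 0.67 to 0.91 in the 5 plates that held at least 3 neurons of each kind. Of the 46 neurons whose sum was at least 3%, 45 were low-gene neurons.

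**Figure D3:**
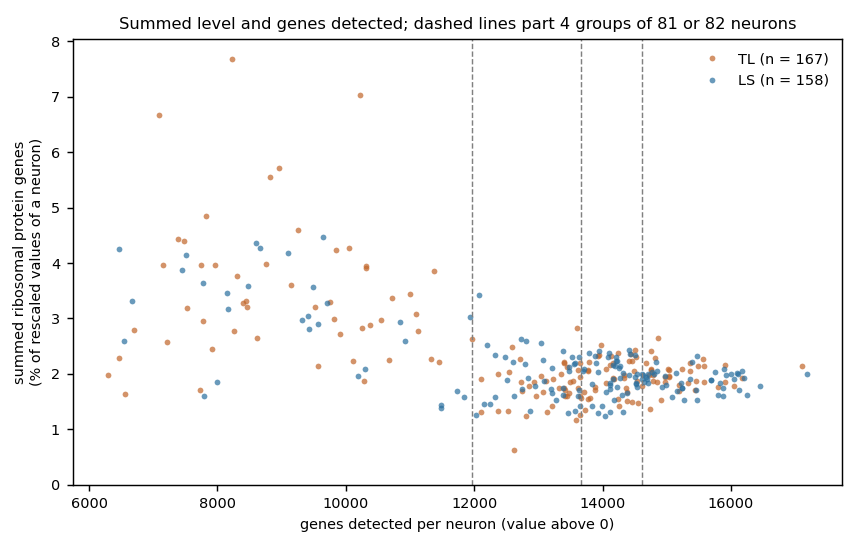
Summed level of the ribosomal protein genes, in percent of a neuron's rescaled total, against the number of genes detected, 1 point per neuron (orange, 167 TL; blue, 158 LS). Dashed lines at 11968, 13658 and 14618 genes part 4 groups of 81 or 82 neurons; left of the first line the sums run from 1.38% to 7.68%, and right of the last from 1.36% to 2.65%.

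Above 11968 genes the group means of the sum were close, while single neurons ran from 0.622% to, in 1 neuron, at least 3%. Neurons with 12036 to 13658 genes had a mean of 1.85% ± 0.437 (n=81) and those with 13699 to 14618 genes 1.94% ± 0.331 (n=81). Their log2 ratios to the high-gene neurons were -0.05 (plates -0.12 to 0.23) and 0.01 (plates -0.03 to 0.12). Sum and genes detected gave a Spearman rho of -0.41 over 325 neurons and of -0.20 to -0.62 within plates, but 0.08 without the low-gene neurons (n=243). Sum and reads gave 0.02, with -0.42 to 0.33 within plates, and 0.32 without the low-gene neurons (n=243). The number of genes detected depends on depth, and low-gene neurons had a median of 2091288 reads against 4519132. In a check chosen after seeing the data, each neuron was thinned to 400000 reads and the neurons were grouped anew. The log2 ratio of the sum was then 0.79 and 79 of 79 members were higher in every plate. The share over all genes was not computed for this grouping.

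The 79 members all had the same direction in this comparison. A gene was called higher or lower where the ratio of the group means had that sign in each of the 5 plates, which is a rule of direction and not a test. By it, 79 of the 79 genes with a mean of at least 10 in a group were higher in low-gene neurons, against 13% of the 7879 genes compared, and 0 lower, against 37.8%. Of the 79, 68 were also at least 1.5-fold higher, against 7.12%. Their log2 ratios ran from 0.41 to 1.10 with a median of 0.78, whereas the median over all genes was -0.28. Between the second group and the high-gene neurons only 5 members were higher (6.54% of all genes) and 0 lower (14.4%), and for the third group 13 (8.92%) and 2 (9.9%).

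The 5 largest ratios were of small subunit genes. Rps12 had levels of 29.8, 399.5 and 1061 in the lowest, the median and the highest of the low-gene neurons and 94.7, 201 and 423 in the high-gene neurons (log2 ratio of the means 1.10, plates 1.02 to 1.64). Rps27 had 98.9, 462 and 2092 against 100.5, 236 and 571 (1.10, plates 1.03 to 1.76). Rps29 had 87.6, 551 and 3821 against 147, 313 and 445 (1.08, plates 1.00 to 1.42). In each of these genes the low-gene neurons held both the lowest and the highest level, and for Rps29 their median was above the highest of the high-gene neurons. Rps23, close to the decoding site, had mean levels of 471 and 234 (1.01), and Rps20 of 134 and 66.8 (1.00). The smallest were 0.41 for Rpl15 and 0.44 for Rpl18 on the log2 scale, and Rpsa had 0.56. The stalk genes were close to one another in ratio though not in level, with 0.81 for Rplp0, 0.80 for Rplp1 and 0.83 for Rplp2. Small subunit genes as a group kept their portion of the sum, with 40.9% ± 1.55 in low-gene and 40.8% ± 1.07 in high-gene neurons.

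**Figure D4:**
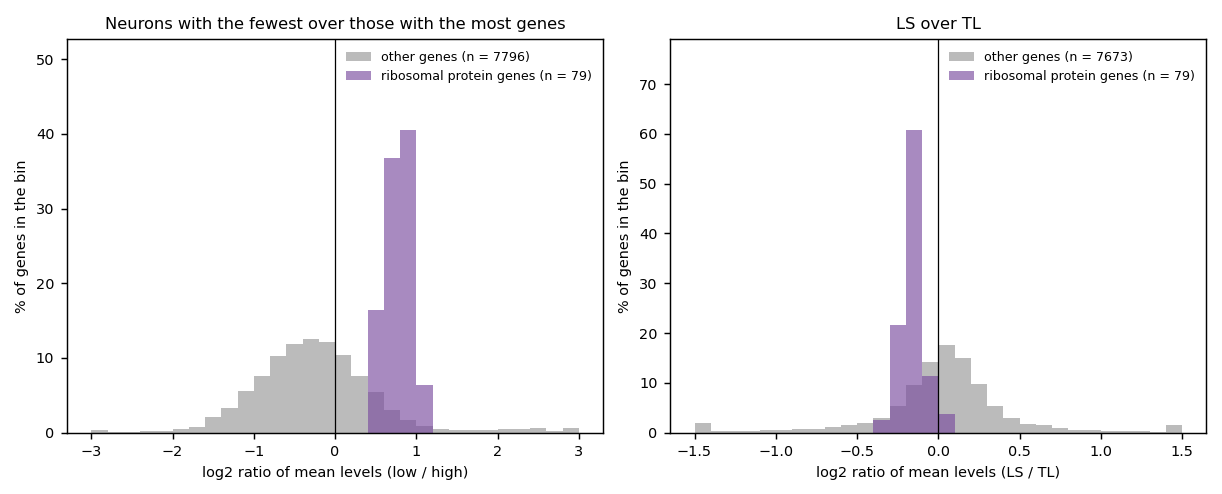
Distribution of log2 ratios of mean levels for the 79 ribosomal protein genes and for the other genes compared: low-gene over high-gene neurons at left (7796 other genes) and LS over TL at right (7673 other genes), leaving out genes at 0 in a group, as the percentage of genes per bin, with the outermost bins holding all values beyond ±3 and ±1.5. The members lie between 0.41 and 1.10 at left and between -0.31 and 0.04 at right.

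Both spinal levels showed it. Among TL neurons the mean sum was 3.47% in 52 low-gene and 1.98% in 37 high-gene neurons (log2 0.81), and 79 of 79 members were higher in each of the 4 plates compared (background 11%). Among LS neurons it was 3.00% in 30 and 1.88% in 44 (0.67), with 75 of 79 members higher in each of 4 plates (background 10.4%). The 4 not called in LS were Rpl8, Rpl15, Rpl22 and Rpl24.

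Shared features of the members were set beside these ratios. Transcript length was one: among other genes, the 607 with a counted length of at most 1000 bases had a median log2 ratio of 0.27 and the 7193 longer ones -0.32. In the 184 short genes with a mean of at least 100 the median was 0.32, still below the 0.78 of the members. Among the members themselves, the ratio and length gave rho -0.19 and the ratio and level 0.06 (n=79 genes). The 26 members with a run of at least 8 C or T at the start had a median ratio of 0.83 and the 33 with shorter runs 0.73. In other genes the medians were -0.28 for 773 with such a run and -0.30 for 5184 with a shorter one, and in the opposite order, 0.24 and 0.35, for other genes of at most 1000 bases. The part of length in the members' ratios was not tested.

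The other lists are given against the same background of 13% of all genes higher and 37.8% lower in low-gene neurons. All 9 further TOP mRNAs were higher in every plate (median log2 0.52), among them Gas5, a host of small nucleolar RNAs, with 0.95 and Npm1, a nucleolar chaperone, with 0.74, and so were all 5 ribosomal proteins outside the name rule (0.49). Of 7 elongation factors 3 were higher and 1 lower, led by Eef1a1, which brings transfer RNA to the ribosome, with mean levels of 2496 and 1309 (0.93). Of 27 initiation factors 11 were higher and 4 lower (median 0.19), of 74 mitochondrial ribosomal proteins 21 and 5 (0.09), and of 21 biogenesis factors 3 and 1 (-0.11). By contrast, 11 of 13 mRNAs encoded by mitochondrial DNA were lower and 0 higher (-1.12), as were 3 of 5 nuclear RNAs (-1.07), with Meg3 at -3.36 and Snhg11 at -2.73. Of the 10 sensory neuron markers 5 were lower and 0 higher (-0.42). The shares lower among sensory neuron markers and higher among biogenesis factors were near the background.

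Markers of other cells moved too. Of the 10 satellite glia markers, 1 was above 0 in all neurons, and 90 neurons had all 10 above 0. All 10 were higher in low-gene neurons in every plate (median log2 2.48), and their summed level ran from 50.0 to 102994 (median 1622, mean 14527) in low-gene and from 76.5 to 8897 (median 2367, mean 2763) in high-gene neurons. In neurons below the median of that sum, the members' log2 ratio was 0.68 and 78 members were higher in each of 3 plates, and without the 33 neurons highest in satellite glia genes it was 0.75, again with 78. Of 3 Schwann cell genes 2 were higher and 1 lower, the 1 macrophage gene compared was lower, none of 4 endothelial genes or of 1 fibroblast gene was called, and no red blood cell gene reached the level needed. All 68 neurons whose number of genes lay over 3 median absolute deviations (MAD) under the median were low-gene neurons. Without them 14 low-gene neurons and 2 usable plates remained, with a ratio of 0.37 and 10 members higher. The ratios in the 2 plates were -0.13 and 0.30. The number of genes also made the groups, so this setting cannot show what the ratio rests on. The share of all genes called was not computed for these smaller sets of neurons. Whether the 68 libraries were of lower RNA quality was not tested.

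Between the spinal levels the members differed slightly. The summed level was 0.622%, 2.07% and 7.68% in the lowest, the median and the highest TL neuron and 1.23%, 1.98% and 4.47% in LS, so that the ranges overlapped widely. The means were 2.38% ± 1.06 (n=167) in TL and 2.13% ± 0.666 (n=158) in LS, a log2 ratio of -0.16 (LS over TL), with -0.29 to -0.02 in 5 plates. By the rule of the same sign in every plate, 33 of 79 members were lower in LS, against 12% of 7752 genes, and 0 were higher, against 19.7%. None of the 33 reached 1.5-fold, against 4.14% of all genes. With size factors from 973 genes in place of the rescaling, 46 members were lower and 0 higher, and over all genes 15.9% were higher and 14.7% lower.

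Among the 33 called members, the genes with the largest ratios belonged to both subunits. Rpl35 had a larger ratio (-0.31) but was not called, with -0.78 to 0.07 in the plates. Rpl36a, encoded on the X chromosome, had levels of 5.74, 70.8 and 282 in the lowest, the median and the highest TL neuron and 25.4, 64.5 and 284 in LS (log2 -0.30, plates -0.40 to -0.05). Rpl27a had 6.85, 73.0 and 331 against 28.9, 59.8 and 208 (-0.29, plates -0.47 to -0.10). In both genes the LS neurons lay inside the TL range or close to it. Rpl34 had mean levels of 161 ± 89.8 and 133 ± 66.0 (-0.28), Rps21 196 ± 108 and 163 ± 85.5 (-0.27), and Rps24, one of the genes mutated in Diamond-Blackfan anaemia, 381 ± 196 and 319 ± 139 (-0.26).

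The number of low-gene neurons moved with this difference. They were 52 of 167 TL neurons (31.1%, exact 95% interval 24.2 to 38.8) and 30 of 158 LS neurons (19.0%, 13.2 to 26.0). These intervals treat neurons as independent, leave out differences between animals, cultures and plates, and are no comparison of the spinal levels. Without the low-gene neurons the mean sum was 1.89% in 115 TL and 1.92% in 128 LS neurons. Among neurons at or above the median of 13658 genes it was 1.96% and 1.91% (log2 -0.037), with 4 members lower in LS (among them Rpl29, Rpl34 and Rplp2; background 14.5%) and 3 higher (Rpl31, Rpl23a and Rps15a; background 16.6%). Of 9 satellite glia genes compared, 5 were lower in LS and 0 higher, with a median sum of 2338 in TL (50.0 to 102994) and of 351 in LS (71.9 to 62708). Without the 33 neurons highest in them 16 members were lower in LS and 0 higher. Without the 68 neurons of few genes 3 members were lower and 10 higher, with a log2 ratio of the sum of -0.013. The share over all genes was not computed for these sets of neurons. The spinal level was also the culture, and these cannot be told apart.

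Between molecular types the sums were close, and the direction differed between plates. Gfra3, the receptor of the growth factor artemin, marks peptidergic neurons and Piezo2, a mechanically gated channel, marks mechanosensory neurons. With either gene taken as present at a level of 10 or more, 158 neurons had Gfra3 alone, 120 Piezo2 alone, 25 both and 22 neither. The sum was 0.622%, 2.00% and 6.66% in the lowest, the median and the highest Gfra3 neuron and 1.25%, 1.96% and 5.55% in Piezo2 neurons. Its means were 2.23% ± 0.847 and 2.09% ± 0.650, a log2 ratio of 0.10, which was above 0 in 4 plates and below in 1 (-0.15 to 0.34). Only 8 members were higher in Gfra3 neurons in every plate, against 18.1% of 7895 genes, and 1 was lower, against 26.1%.

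**Figure D5:**
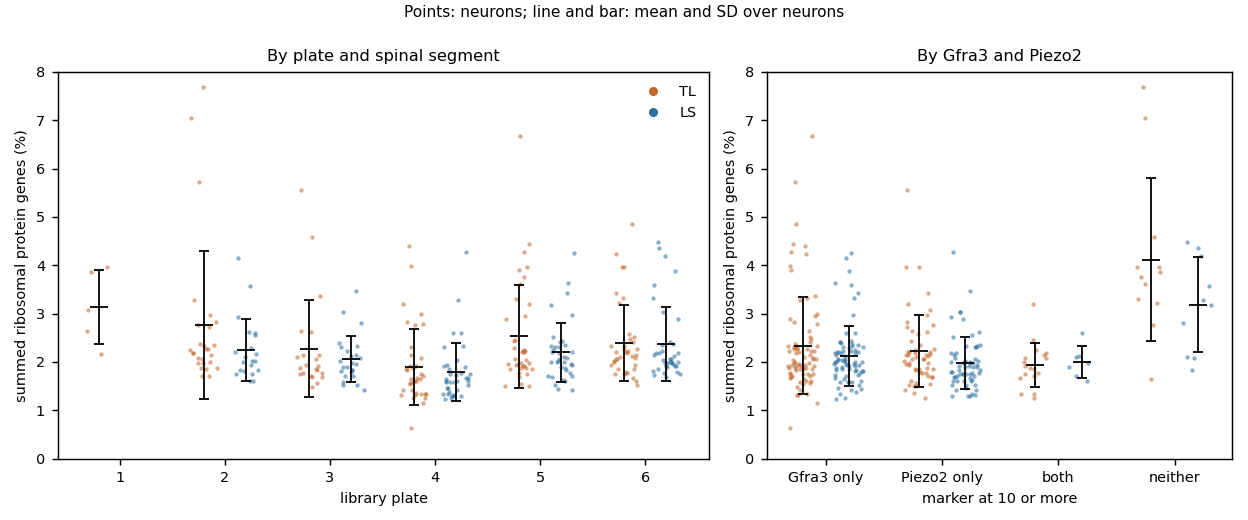
Summed level of the ribosomal protein genes per neuron, in percent of the rescaled total, by plate and spinal level and by presence of Gfra3 and Piezo2; points are neurons and bars give the mean and SD over neurons. The 22 neurons with neither marker have a mean of 3.69%, against 2.23% with Gfra3 alone and 2.09% with Piezo2 alone.

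Both shares of called members were below the background, so the genes named next describe the called members and are no result about the group. Rps19, the gene most often mutated in Diamond-Blackfan anaemia, had levels of 14.2, 80.8 and 269 in the lowest, the median and the highest Gfra3 neuron and 31.8, 61.4 and 309 in Piezo2 neurons (log2 ratio of the means 0.38, plates 0.06 to 0.77). Rps9 had 40.7, 194 and 567 against 95.3, 160 and 346 (0.34, plates 0.25 to 0.54). In both, the Gfra3 neurons had the higher median within ranges that overlapped. Rpl22 had mean levels of 62.4 ± 26.4 and 51.8 ± 20.9 (0.27), Rpl10, needed for the last steps of large subunit assembly, 415 ± 168 and 347 ± 126 (0.26), and Rpl11, which together with Rpl5 carries the 5S ribosomal RNA, 137 ± 53.9 and 116 ± 33.9 (0.23). The other 3 higher members were Rpl14, Rps27l and Rpl21. Rpl23a went the other way, with levels of 8.98, 41.8 and 132 in Gfra3 and 26.3, 51.7 and 159.8 in Piezo2 neurons (-0.26, plates -0.44 to -0.11).

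Among neurons at or above the median number of genes, the sum was 2.00% in 80 Gfra3 and 1.84% in 68 Piezo2 neurons (log2 0.12, plates -0.015 to 0.18). There 24 members were higher (background 20.3%), with Rps19 at 0.44 and Rps9 at 0.40, and 4 lower (background 30.7%), namely Rps13, Rpl28, Rpl5 and Rpl23a. Rps27 alone reached 1.5-fold (0.61), against 8.07% of all genes. Within TL 14 members were higher (14.3% of all genes) and 2 lower (21.8%), and within LS 6 (17.6%) and 0 (21%). With LS over TL taken inside each type, the log2 ratio of the sum was -0.13 in Gfra3 neurons, with 31 members lower (background 7.7%). In Piezo2 neurons it was -0.17, with 17 lower (background 12.8%). The plates ran from -0.22 to -0.08 in Gfra3 neurons and from -0.18 to 0.06 in Piezo2 neurons. Median sums were 2.00% in LS and 2.02% in TL for Gfra3 neurons, and 1.89% and 2.07% for Piezo2 neurons. The count of members higher in Gfra3 neurons of both spinal levels changed with the plates used. Without plate 3 it was 35, where the sign had to be the same in 4 plates only. The share over all genes was not computed for that set. Of 8 satellite glia genes compared, 1 was higher in Gfra3 neurons and 0 lower, with a median log2 ratio of 0.87, and their summed level had means of 5827 and 3025 and medians of 1181 (50.0 to 95532) and 1114 (92.8 to 46921). In neurons below the median of that sum the log2 ratio of the members was -0.049.

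Neurons with both markers had a mean sum of 1.95% ± 0.418 (n=25). Those with neither had 1.64%, 3.59% and 7.68% in the lowest, the median and the highest neuron (mean 3.69% ± 1.46, n=22), above the means of the other types, with 4.11% in 12 TL and 3.18% in 10 LS neurons. Of these 22, 19 were low-gene neurons (86.4%, exact 95% interval 65.1 to 97.1), and the remaining 3 had a mean of 2.00%. Their missing markers and their few genes therefore moved together, and the part of each was not tested.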

How the data were processed

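The authors made the libraries with Smart-seq2 and, per the labels, processed reads with bcl2fastq 2.15.0.4, STAR 2.4.1 and featureCounts 1.4.4 on GRCm38.p3. The deposited table by the authors holds log2(x + 1), where x is proportional to reads over exonic length. Here x was rescaled to a total of 1000000 per neuron. Reads were recovered as whole numbers with GENCODE M21 lengths for 65.0% of values (relative tolerance 1e-06). For 8712 genes, 34 members among them, the length was found from the values. Neurons were grouped by the segment labels, by plate, by genes detected (4 groups of 81 or 82) and by Gfra3 and Piezo2 at 10 or more.

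Groups were compared as the log2 ratio of mean levels for genes with a mean of at least 10 in a group. A gene was called where the sign was the same in every plate with at least 3 neurons on each side, and plate 1, with 5 TL neurons, gave no ratio. The rule was tested on simulated data without differences between plates or cultures, so its rate of wrong calls here is not known. No p-value was computed. Depth limits single genes more than the sum: the lowest count of a member with a mean of at least 10 was 1 read.

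Members and lists were chosen with earlier results of these data known. Named genes were the 5 highest and 5 lowest levels, the 5 largest called ratios in each direction, the 5 lowest correlations, members ending in l with their paralogs, and Rplp0, Rplp1, Rplp2 and Rpsa. Other members were named after their values were seen, and some genes that the rule gives are not reported here. Lists of other translation genes and of cell type markers were chosen by function. Alternatives were other scalings, averages, filters, thresholds and sets of neurons. Python 3.11.15, pandas 2.3.3 and scipy 1.17.1 were used.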

Additional observations from a re-analysis of the deposited data

How the results depend on the processing

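No paired analysis was possible because the labels pair no neurons and the results come from no test. The cause of the changes listed here was not tested in any setting. The summed level (2.26%) was 2.84% rescaled without rows naming ribosomal RNA or mitochondrial genes, 1.94% without the 68 neurons over 3 median absolute deviations low in genes, and 2.21% to 2.38% leaving out each plate. The low-gene over high-gene log2 ratio (0.78) was 0.37 without those 68 neurons, 0.42 between neurons below and above the median number of genes, 0.95 in CPM (chosen after seeing the data, as were the thinning, the splits by the median of satellite glia genes and the sets without neurons of neither marker) and 0.75 to 0.83 leaving out each plate. Its 79 members were 10 without the 68 neurons and 79 to 79 by plate. The LS over TL ratio (-0.16) was -0.013 without the 68 neurons, -0.037 at or above the median number of genes, -0.066 by medians over neurons, and -0.21 to -0.13 by plate. Its 33 members lower in LS were 15 by medians over neurons, 3 without the 68 neurons, 16 without the 33 neurons highest in satellite glia genes, 4 at or above the median number of genes, 4 below the median of satellite glia genes, and 33 to 61 by plate, the 61 without plate 6. Members higher in LS, 0 in the main setting, were 10 without the 68 neurons, 3 by medians over neurons and 3 at or above the median number of genes. Leaving out each plate gave 0 or 1 higher. The Gfra3 over Piezo2 ratio (0.10) reversed to -0.049 below the median of satellite glia genes and was 0.012 without the 68 neurons, 0.052 without the 33, 0.029 by medians or at a threshold of 5, and 0.01 to 0.13 by plate, lowest without plate 5. Its 8 higher members were 5 with size factors, 14 by medians, 13 without the 68 neurons, 4 without the 33 neurons, 2 at a threshold of 5, 24 at or above the median number of genes, 2 below the median of satellite glia genes and 8 to 35 by plate, and its 1 lower member 3, 8, 2, 4 and 4 in these settings (medians, 68 neurons, 33 neurons, median number of genes, satellite glia), 2 with a wider member rule and 1 to 4 by plate. The median correlation (0.795) was 0.833 and 0.834 as Pearson's r on log2 values with a pseudocount of 1 and 10, 0.705 without low-gene neurons and 0.834 with each plate centred. The share over all genes was not computed for counts that leave out a plate, the 68 or 33 neurons, or neurons by satellite glia genes. Nor was it computed for counts by medians, at a threshold of 5, with a wider member rule or after thinning. With size factors, 19.6% of all genes were higher in Gfra3 neurons and 23.2% lower. Fewer plates make the rule of the same sign easier to meet. The other alternatives kept the direction, with ratios and counts within 1.5 times.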
